A study of Mus musculus with 8 samples.

Results

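The mitochondrial ribosomal proteins were examined in the RNA of tumor-associated macrophages (TAMs) from mice given thiostrepton by either of 2 routes. The members are the genes of the count table whose symbol starts with Mrpl or Mrps and a number, with at least 80 counts in total over the 8 libraries. There were 76 of them among 23413 gene symbols, 47 named for the large subunit (Mrpl) and 29 named for the small subunit (Mrps). No symbol of that form fell below the minimum, and the least abundant, Mrpl47, had 1407 counts in total.

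B16F10 melanoma cells were engrafted in male C57BL/6 mice of 8 to 10 weeks, and F4/80+CD11b+ cells without Gr-1 were sorted from the CD45+ cells of the tumors on day 18. All 8 mice carried the same tumor and differed in what they were injected with on days 6 and 12. In the DMSO group (2 mice) it was the vehicle, by a route that the labels do not give. In the I.P. group (4 mice) it was thiostrepton into the peritoneum, at one of the 2 doses of the study, which the labels do not name. In the S.C. group (2 mice, labelled IS), it was thiostrepton beside the tumor, at 20 mg/kg. The sample labels of these 2 mice name the injection site alone, and the agent comes from the description of the series. The libraries held 14127506 to 17577466 counts. Levels are given as CPM (a gene's counts scaled to a common library size) after TMM, a factor that evens out library composition. The smallest p that an exact two-sided permutation test allows is 0.133 for I.P. against DMSO and 0.333 for S.C. against DMSO, so tests were taken from edgeR, which shares its estimate of spread across genes.

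The mitochondrial ribosome translates the few proteins encoded by mitochondrial DNA, all of them subunits of the respiratory chain or ATP synthase. Its protein subunits are encoded in the nucleus, made in the cytosol and imported, so their mRNAs are read here as nuclear transcripts. Thiostrepton is a thiopeptide antibiotic that binds the bacterial large subunit where protein L11 meets the ribosomal RNA, at the centre that activates the translation GTPases, and mitochondria keep a version of that site. The mRNAs made inside mitochondria were not analysed here, so the counts say nothing of mitochondrial translation itself.

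The genes lie on 17 chromosomes in GENCODE vM21 (GRCm38, the same assembly as mm10). Of the 76 members, 17 (22.4%) have the start of a protein-coding gene read in the opposite direction within the 1000 bases upstream of their own. The same held for 1363 of 19356 protein-coding genes of the table (7.04%). These include genes with few or no counts, and the share among expressed genes alone is not given here. Opposite genes that overlap at their starts, such as Mrpl46 and Mrps11, were not counted. Examples are Mrpl49, 59 bases from the start of Fau, and Mrps12, 172 bases from that of Sars2. RefSeq windows of 250 bases before to 50 after the start (GRCm38.p6) were matched for 67 members and searched on both strands for 5 motifs. The NRF1 letters GCGCATGCG were in 7 of them (10.4%), against 4.37% of the windows of genes with at least 80 counts and 1.95% of all windows. For GABPA (CCGGAAGT) the numbers were 12 members (17.9%), 9.51% and 4.31%, and for YY1 (AANATGGCG) they were 10 members (14.9%), 6.34% and 2.76%. The SP1 letters GGGCGG were in 33 members (49.3%), against 68.4% and 38.2%, and the E-box CACGTG was in 5 members (7.46%), against 12% and 8.09%. None of the 5 motifs contains another, although matches can share bases at their ends, and a match is no more than a run of letters.

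The 150 bases before the start are shown for 3 members to which the results below return, on the plus strand and 5′ to 3′, with matches to NRF1, GABPA or YY1 in capitals. The Mrpl10 stretch lies at chr11:97041432-97041581, between the starts of Mrpl10 and the opposite gene Lrrc46, and holds the NRF1 letters, read on the minus strand, from base -135. The Mrpl44 stretch (chr1:79775868-79776017) holds none of the 3, and the Mrps26 stretch (chr2:130563607-130563756) holds those of GABPA, also on the minus strand, from base -15.
Mrpl10: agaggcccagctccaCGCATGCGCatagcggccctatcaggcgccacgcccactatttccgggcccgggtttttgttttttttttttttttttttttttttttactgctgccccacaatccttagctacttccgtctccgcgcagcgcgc
Mrpl44: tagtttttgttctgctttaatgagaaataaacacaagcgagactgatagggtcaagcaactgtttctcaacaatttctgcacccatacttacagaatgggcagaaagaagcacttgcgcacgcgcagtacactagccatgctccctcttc
Mrps26: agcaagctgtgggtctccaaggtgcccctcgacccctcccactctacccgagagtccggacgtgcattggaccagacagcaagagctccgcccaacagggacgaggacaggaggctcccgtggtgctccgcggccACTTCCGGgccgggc

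All 76 members were expressed in every mouse. Their mean level over the 8 mice ran from 10.8 CPM for Mrpl47 to 145 CPM for Mrpl42, with a median of 49.5 CPM. Per kilobase of exon, the highest levels were those of Mrpl42 (214 CPM per kb), a subunit without a bacterial homologue, of Mrpl33 (164) and of Mrpl28 (135). The lowest levels per kilobase were those of Mrpl47 (3.22), the mitochondrial L29 beside the tunnel exit, of Mrps5 (5.87) and of Mrps35 (6.16). Exon length here merges all annotated exons of a gene. It can exceed the length of any single transcript, so these ranks depend on the annotation. Exons of 25 members (32.9%) overlap exons of another gene. The overlap was 240 bases for Mrpl10, 200 for Mrpl12 and 452 for Mrpl47, but only 8 of 4278 for Mrps26. Among the longer ones were those of Mrps25 (3533 of 6073), Mrpl53 (695 of 695) and Mrps18b (638 of 1079). No source used here says whether reads were counted by strand, so counts of genes with long overlaps are uncertain.

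**Figure D1:**
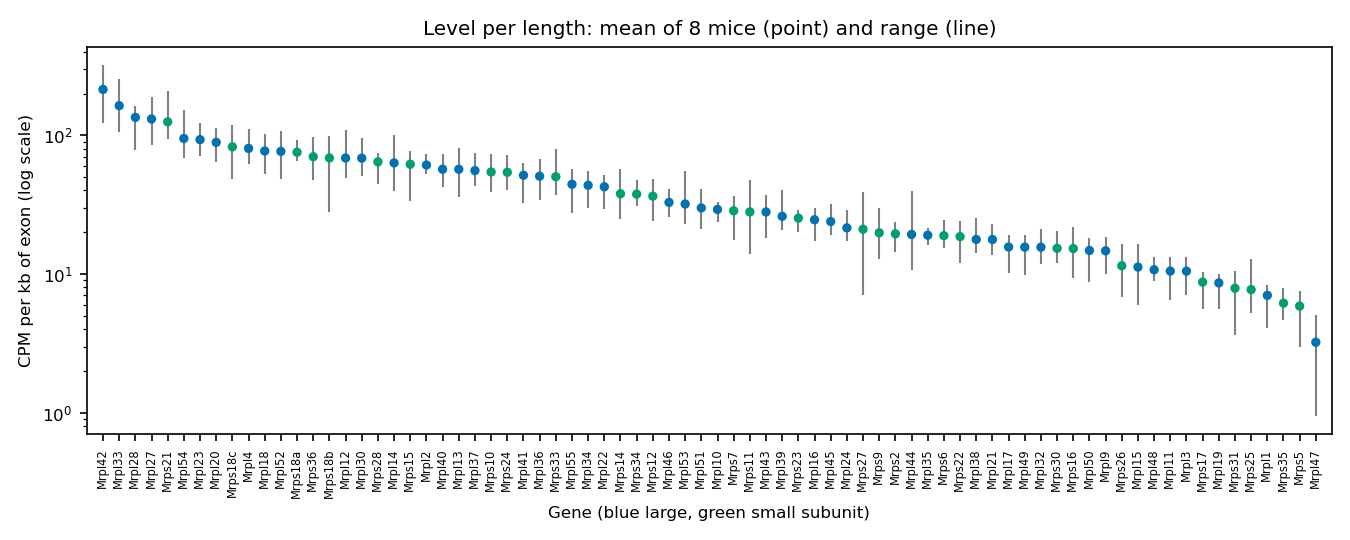
Level of each member in CPM per kilobase of exon on a log axis, as the mean of the 8 mice (points, blue for Mrpl and green for Mrps) with the lowest and highest mouse (lines). The genes run from Mrpl42 at 214 to Mrpl47 at 3.22 CPM per kb.

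The members moved more between individual mice than between the groups. Their summed level was 4195 and 4386 CPM with DMSO. After I.P. injection it was 4507, 3981, 4351 and 3194 CPM. After S.C. injection it was 5247 and 3331 CPM. S.C. mouse 1 held the highest sum of the 8 mice and I.P. mouse 4 the lowest, with S.C. mouse 2 next to it, and the DMSO range lay inside that of either thiostrepton group. The Mrpl and Mrps genes kept step. The Mrpl genes summed to 2734 and 2900 CPM in the DMSO mice, 2139 CPM in I.P. mouse 4, 3447 CPM in S.C. mouse 1 and 2199 CPM in S.C. mouse 2. The Mrps genes summed to 1460, 1487, 1056, 1800 and 1131 CPM in the same order. In bulk samples fewer cells of a type and less RNA per cell cannot be told apart.

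**Figure D2:**
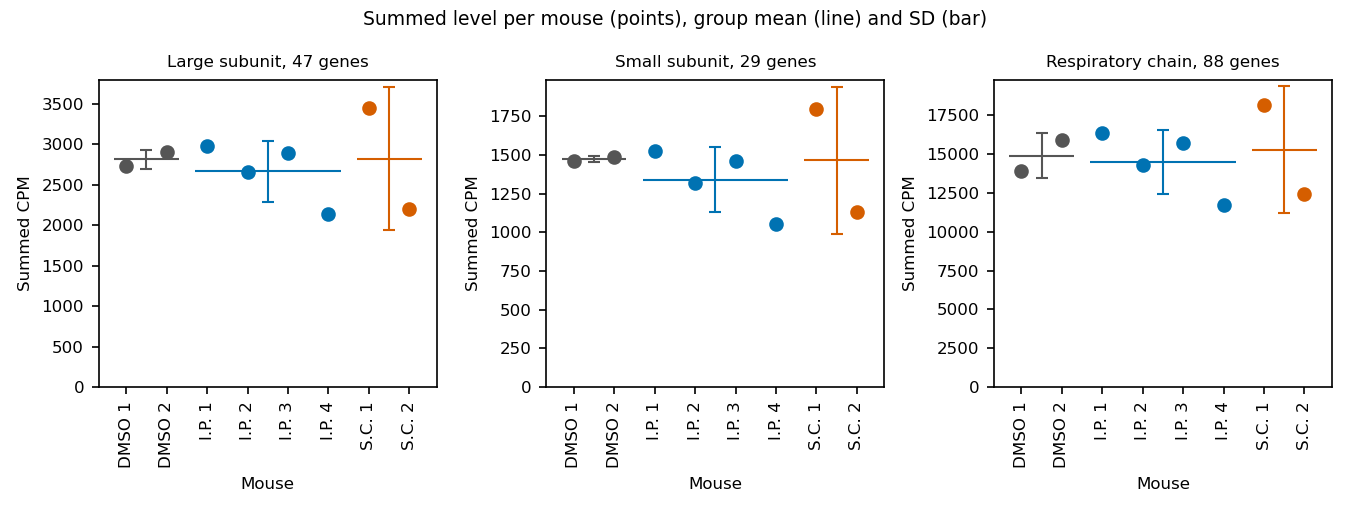
Summed CPM per mouse (points) of the Mrpl genes, the Mrps genes and, for comparison, 88 nuclear-encoded respiratory chain subunits, with the group mean (line) and SD (bar). In all 3 panels S.C. mouse 1 is the highest mouse and I.P. mouse 4 the lowest.

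The same mice stood apart gene by gene. I.P. mouse 4 was the lowest of the 8 mice for 34 members (12.1% of all genes) and S.C. mouse 2 for 30 members (20.7% of all genes), while S.C. mouse 1 was the highest for 39 members (21.2% of all genes). S.C. mouse 1 exceeded S.C. mouse 2 in 68 of 76 members (49.2% of all genes), with a median log2 difference of 0.65 (0.00 over all genes). These mice differed at least 2-fold in 18.4% of the members and 40.8% of all genes, and for 13 members it was an excess in S.C. mouse 1. The widest gap was that of Mrps27, an RNA-binding pentatricopeptide protein, at 72.4 CPM in S.C. mouse 1 and 13.1 CPM in S.C. mouse 2, against 50.3 and 36.6 CPM in the DMSO mice. Mrpl47 was the 1 member at least 2-fold lower in S.C. mouse 1 (3.16 CPM, against 8.81 CPM in S.C. mouse 2). Both genes were picked out after their values were seen. The DMSO mice differed 2-fold in 0 members (11.1% of all genes). The median SD of log2 CPM within a group was 0.13 for the members in DMSO, 0.27 in I.P. and 0.46 in S.C., below the 0.24, 0.43 and 0.55 of all genes.

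**Figure D3:**
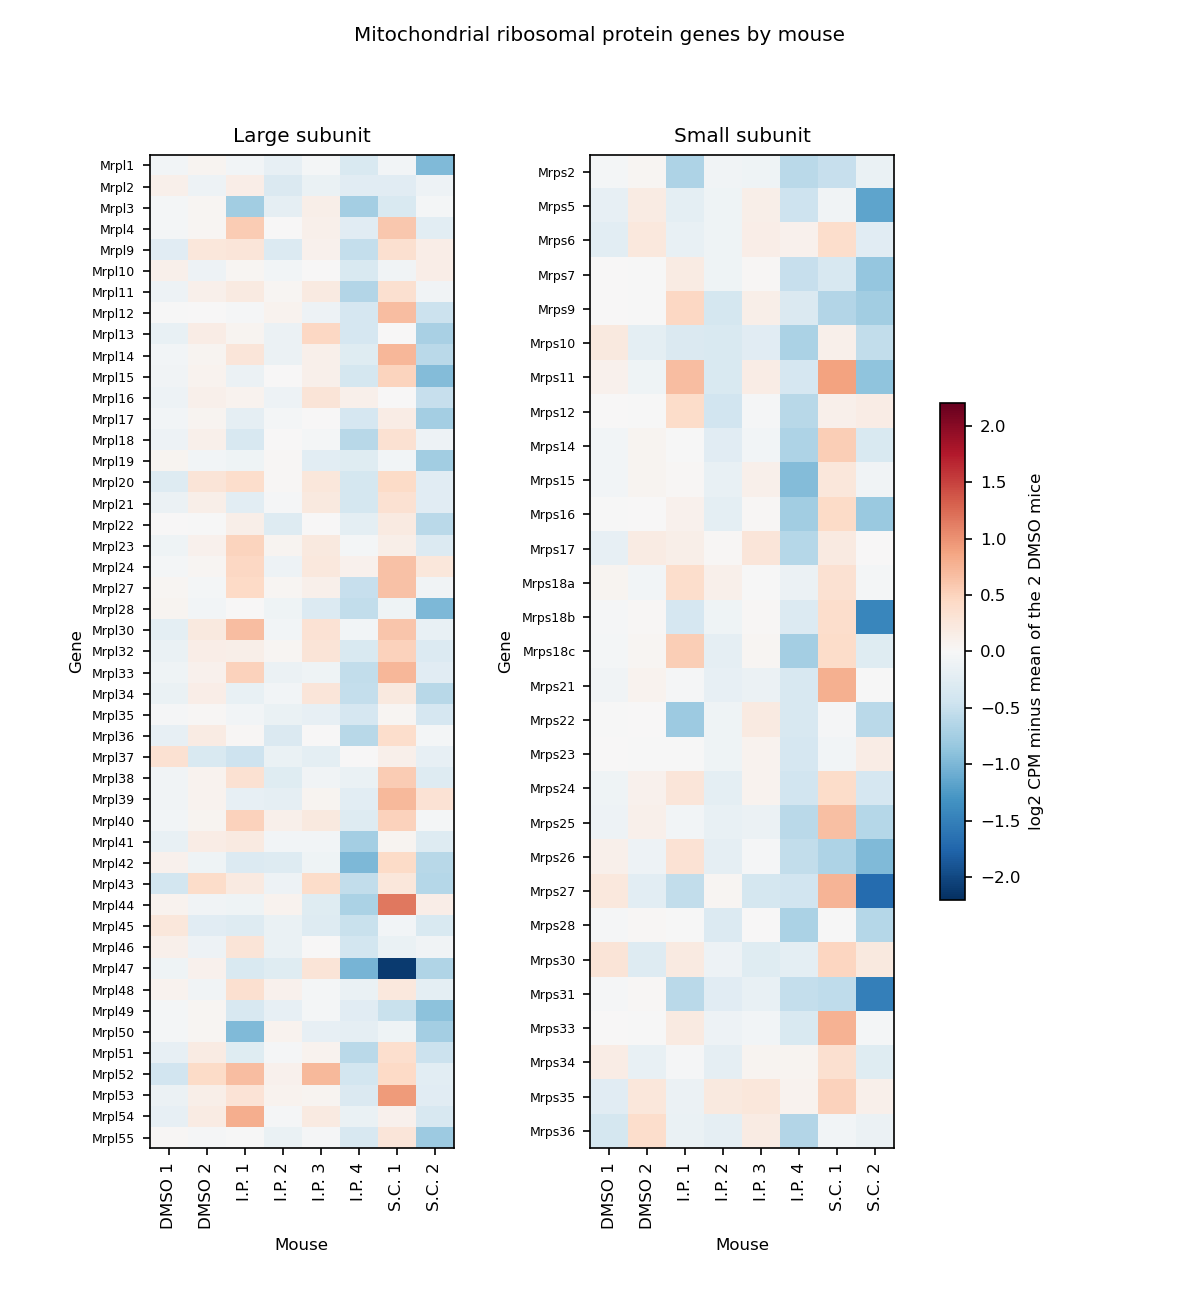
Log2 CPM of each member in each mouse, less the mean of the 2 DMSO mice (colour, red higher and blue lower), with the Mrpl genes on the left and the Mrps genes on the right. Values run from -2.10 (Mrpl47 in S.C. mouse 1) to 1.17 (Mrpl44 in S.C. mouse 1), and the columns of I.P. mouse 4 and S.C. mouse 2 are mostly blue.

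Other measures moved with these mice. Genes that are not members were split by exon length, with all annotated exons of a gene merged, which is not the length of a transcript. Their median deviation from the mean of the 8 mice was higher under 1000 bases than at 4000 or more. The difference was 0.66 (log2) in S.C. mouse 1 and 0.45 in I.P. mouse 1. The same difference was -0.57 in I.P. mouse 4, -0.41 in S.C. mouse 2 and -0.32 in DMSO mouse 1, and the other 3 mice lay between -0.16 and 0.13. The median deviation of the members themselves was 0.35 in S.C. mouse 1, 0.13 in I.P. mouse 1, -0.33 in I.P. mouse 4, -0.30 in S.C. mouse 2 and 0.03 in DMSO mouse 1. The gap between the S.C. mice was also present in the 11 members with 4000 bases or more, at a median of 0.71, where 4229 other genes of that length had -0.37. In the 22 members under 1000 bases it was 0.67, where 550 other genes had 0.62. The nuclear-encoded respiratory chain subunits summed to 18172 CPM in S.C. mouse 1, 12412 CPM in S.C. mouse 2 and 11720 CPM in I.P. mouse 4, against 13893 and 15912 CPM in DMSO.

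Markers of other cells differed as well. The 7 melanocyte markers, which B16F10 cells express, summed to 596 and 667 CPM in DMSO, 461 to 1671 CPM in I.P. (the most in mouse 4), and 2986 and 700 CPM in S.C. mice 1 and 2. The mouse with the most melanocyte RNA was thus the highest for the members and the next one the lowest. Of 7 neutrophil markers 6 were matched in the table, and these summed to 68.5 and 110 CPM in DMSO, 26.1 to 110 CPM in I.P., and 200 and 293 CPM in S.C., although the gate removed Gr-1+ cells. Cxcr2, a chemokine receptor, made up 171 CPM of the sum in S.C. mouse 1 and 65.3 CPM of that in S.C. mouse 2. The 9 T and NK cell markers summed to at most 13.5 CPM in DMSO and I.P. and to 40.7 and 14 CPM in S.C., the 4 B cell markers to 8.81 to 20.7 CPM and to 29.8 and 25.5 CPM, and the 5 dendritic cell markers to 1.61 to 6.71 CPM and to 13.9 and 9.39 CPM. The 4 endothelial markers summed to at most 9.32 CPM and the 5 fibroblast markers to at most 1.23 CPM in any mouse, with 0 CPM for fibroblast markers in 4 mice. The 9 macrophage markers summed to 9415 to 14796 CPM over all mice, mostly from C1qb, Cd68 and C1qa. Their sum was 13090 CPM in S.C. mouse 1 and 12837 CPM in S.C. mouse 2, yet gene by gene these mice differed in both directions. The markers given next were lower in S.C. mouse 1, and the rest of the list was together higher there. Emr1, which encodes F4/80, was at 360 CPM in S.C. mouse 1 and 1020 CPM in S.C. mouse 2, Csf1r, the receptor for the macrophage growth factor, at 353 and 1128 CPM, Itgam, which encodes CD11b, at 103 and 384 CPM, Mertk at 33.6 and 85.5 CPM and Ptprc, which encodes CD45, at 293 and 522 CPM. The mean log2 CPM of the 9 genes was lowest of the 8 mice in S.C. mouse 1 (8.83) and highest in S.C. mouse 2 (9.52), the reverse of the members in these mice, and it was 9.09 in I.P. mouse 4 and 9.10 and 8.98 in DMSO. The part of exon or transcript length and of the cell makeup in the members' levels was not tested.

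The first comparison asked whether systemic thiostrepton changed the mitochondrial ribosome at the level of mRNA. At an unadjusted P under 0.05, 0 of 76 members were higher (2.55% of all genes tested) and 0 were lower (0.879%), and 0 passed after Benjamini-Hochberg adjustment, as for all genes (0%). The likelihood ratio test of edgeR and DESeq2 also gave 0 members at P under 0.05. The median log2 fold change was -0.10 (0.02 over all genes), and 57 members were lower and 19 higher. The changes were small as well as uncalled. The 95% interval lay within 2-fold of no change for 72 of 76 members (94.7%). That share was 41.6% for all genes and 89.8% for the 88 respiratory chain subunits. Fold changes of the members ran from -0.41 (Mrps10) to 0.27 (Mrpl52) on the log2 scale. The median was -0.01 without I.P. mouse 4, with 42 members lower.

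Mrps10, the S10 protein of the small subunit head, was at 87.3 and 64.9 CPM in DMSO and at 60.5, 59.3, 63.3 and 46.4 CPM in the I.P. mice. The groups did not overlap, yet the difference missed the threshold (log2 fold change -0.41, SE 0.24, edgeR adjusted p = 0.98). All I.P. mice lay below both DMSO mice for 6 members (Mrpl35, Mrpl42, Mrpl49, Mrps2, Mrps10 and Mrps31), against 6.83% of all genes tested, and above both for 0 members (7.32%). Mrpl42 was at 177 and 154 CPM in DMSO and at 134, 135, 154 and 82.7 CPM in I.P., and Mrps31 at 15.5 and 15.8 CPM and at 10.4, 13.1, 13.9 and 10.9 CPM. Both were lower in every I.P. mouse than in either DMSO mouse, for Mrpl42 only narrowly (153.7 CPM in I.P. mouse 3), with log2 fold changes of -0.39 (SE 0.27) and -0.38 (SE 0.27). Mrps2, the S2 protein, and Mrpl45, which lines the tunnel exit and holds the ribosome at the inner membrane, had -0.34 (SE 0.26) and -0.32 (SE 0.23). On the other side, Mrpl52 had 0.27 (SE 0.39), Mrpl54 0.23 (SE 0.31), Mrpl30 0.23 (SE 0.29), Mrpl23, the L23 protein at the tunnel exit, 0.19 (SE 0.23) and Mrpl24, the L24 protein beside it, 0.17 (SE 0.25).

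**Figure D4:**
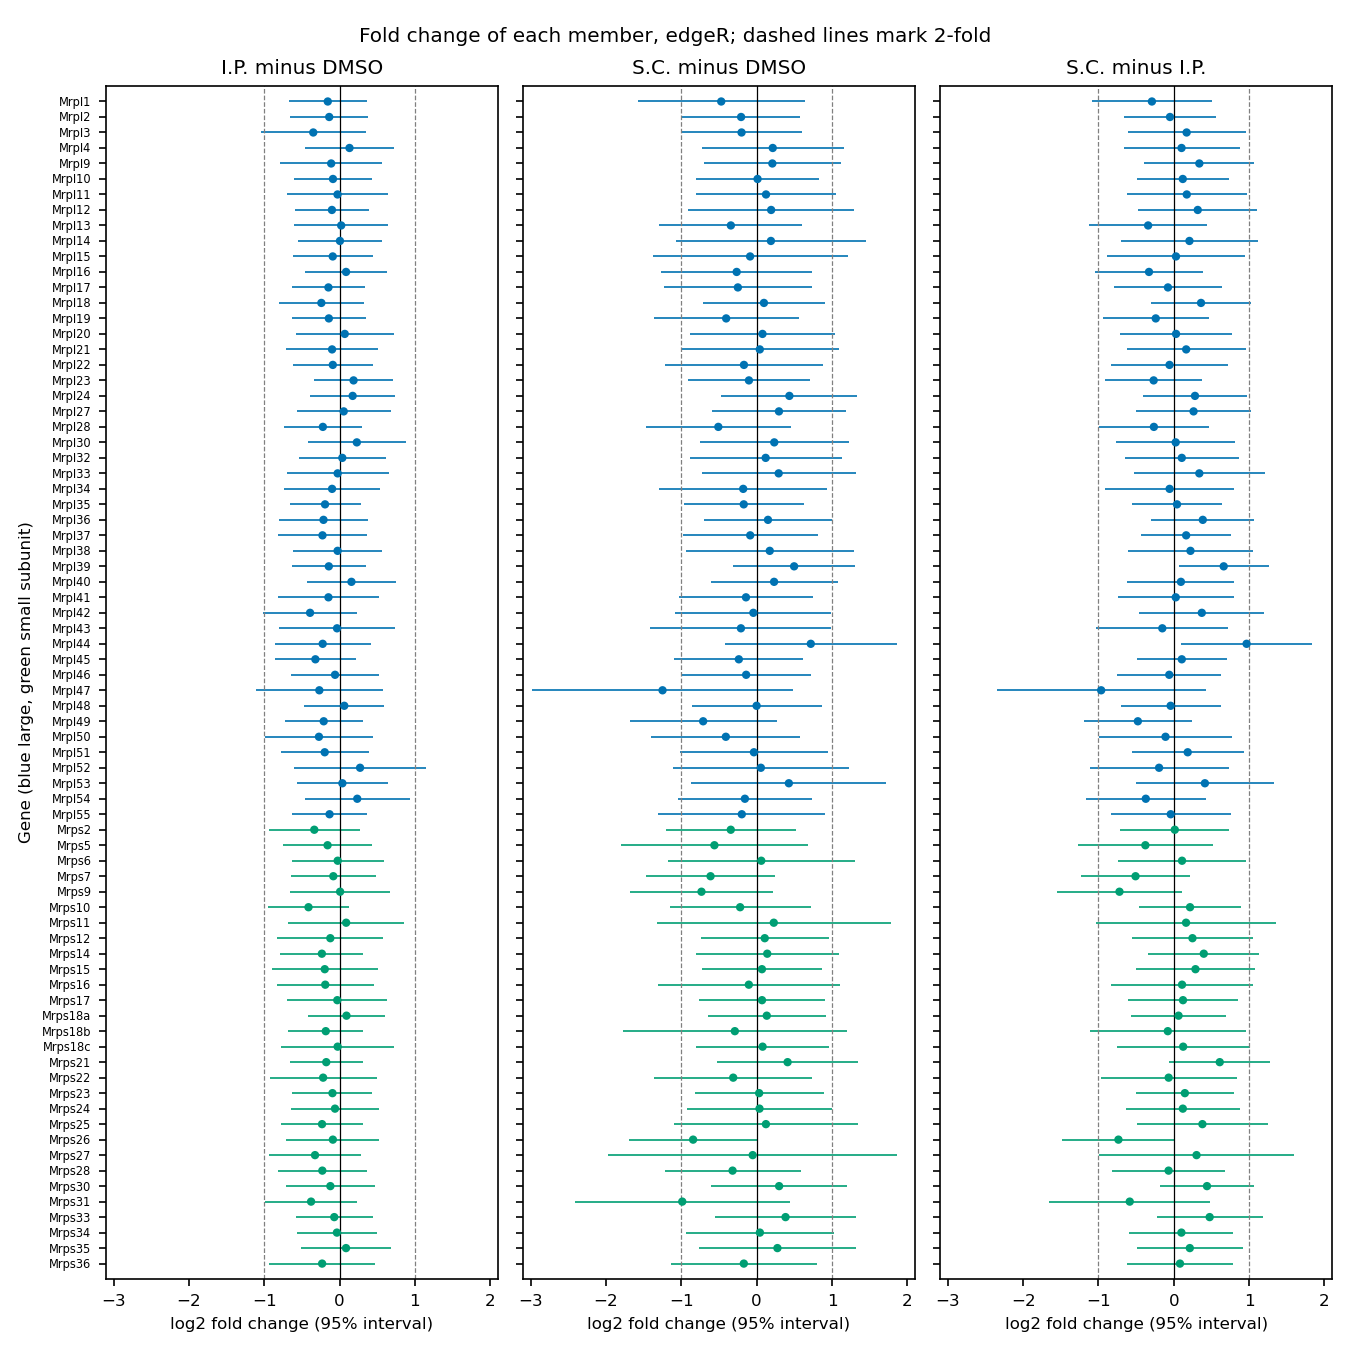
Log2 fold change of every member (points, blue Mrpl and green Mrps) with its 95% interval from edgeR in the 3 comparisons, with dashed lines at 2-fold. The intervals stay within 2-fold for 72 members in I.P. minus DMSO, 17 in S.C. minus DMSO and 39 in S.C. minus I.P.

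The next comparison asked the same of the tumor-adjacent route, with the same DMSO mice. At an unadjusted P under 0.05, 0 members were higher (2.50% of all genes) and 0 lower (2.91%), and 0 passed the adjusted threshold (0%). The likelihood ratio test and DESeq2 gave 0 members too. The median log2 fold change was -0.02 (0.02 over all genes), with 39 members lower and 37 higher. This null was far less precise than that of the I.P. route. The interval lay within 2-fold for 17 of 76 members (22.4%), for 9.60% of all genes and for 31.8% of the respiratory chain subunits. The comparison also joined mice that differed. Without S.C. mouse 1, 67 members were lower, with a median of -0.33, and 18 had P under 0.05, all lower. Without S.C. mouse 2, 25 were lower, with a median of 0.24, and 8 had P under 0.05, 6 higher and 2 lower. In these fits the lone S.C. mouse is assumed to vary like the DMSO mice, and 30.4% and 34.0% of all genes had P under 0.05.

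The smallest P was that of Mrps26, a small subunit protein without a bacterial homologue. It was at 60.9 and 52.7 CPM in DMSO, 70.8, 49.6, 55.3 and 38.9 CPM in I.P. and 35.5 and 29 CPM in S.C. Both S.C. mice lay below all others, and the difference from DMSO narrowly missed the threshold (log2 fold change -0.84, SE 0.34, edgeR adjusted p = 0.934). Both S.C. mice lay below both DMSO mice for 11 members (Mrpl19, Mrpl28, Mrpl47, Mrpl49, Mrpl50, Mrps2, Mrps7, Mrps9, Mrps22, Mrps26 and Mrps31), against 17.2% of all genes, and above both for 4 members (Mrpl24, Mrpl39, Mrpl44 and Mrps12), against 17.1%. Mrps9, the S9 protein, was at 31.3 and 30.6 CPM in DMSO and at 19.8 and 18.1 CPM in S.C. Its log2 fold change was -0.73 (SE 0.38). Mrpl47 lay outside the range of the other mice in S.C. mouse 1 alone: it was at 13.2 and 14.9 CPM in DMSO, 11.0, 11.7, 17.2 and 6.83 CPM in I.P. and 3.16 and 8.81 CPM in S.C., with a log2 fold change of -1.25 (SE 0.70). Mrpl49 had -0.71 (SE 0.39) and Mrps7, the S7 protein, -0.61 (SE 0.35).

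The third comparison set the routes side by side. It shares the S.C. mice with the second and the I.P. mice with the first. At an unadjusted P under 0.05, 2 members were higher in S.C. (3.25% of all genes) and 0 lower (5.34%), and none passed after adjustment (0%). DESeq2 gave 3 members, Mrps26 being added, and the likelihood ratio test 2. With library size scaling the split was 1 higher (Mrpl44) and 2 lower (Mrps26 and Mrps9), with Mrpl39 lost. The shares of all genes passing in these other fits are not given here. The median log2 fold change was 0.10 (0.02 over all genes), and it was -0.01 without I.P. mouse 4. The interval lay within 2-fold for 39 of 76 members (51.3%), for 20.9% of all genes and for 68.2% of the respiratory chain subunits. Both S.C. mice lay above all I.P. mice for 4 members (Mrpl39, Mrpl44, Mrps21 and Mrps30), against 8.05% of all genes, and below all of them for 3 (Mrpl49, Mrps9 and Mrps26), against 10.5%.

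Mrpl44, a large subunit protein with a ribonuclease III-like fold, lies on chromosome 1 from 79776018 to 79781445 on the plus strand. It was at 26.3 and 23.7 CPM in DMSO, 23.3, 26.5, 20.8 and 15.3 CPM in I.P. and 56.1 and 27.7 CPM in S.C. S.C. mouse 1 was far above the other 7 mice, while S.C. mouse 2 lay just above I.P. mouse 2. The difference from I.P. was 0.97 on the log2 scale (SE 0.38, past the unadjusted threshold, edgeR adjusted p = 0.532). It missed the unadjusted threshold when any of 3 mice was left out, with 0.37 in the absence of S.C. mouse 1, 0.92 in that of I.P. mouse 3 and 0.83 in that of I.P. mouse 4. Mrpl39, a large subunit protein without a bacterial homologue, lies on chromosome 16 from 84717576 to 84735742 on the minus strand. It was at 53.0 and 59.4 CPM in DMSO, 49.3, 48.9, 58.3 and 47.7 CPM in I.P. and 92.0 and 69.5 CPM in S.C. Both S.C. mice lay above the other 6 mice, with a difference from I.P. of 0.66 (SE 0.26, past the unadjusted threshold, edgeR adjusted p = 0.532). It missed the unadjusted threshold in the absence of S.C. mouse 1 (0.44) and of I.P. mouse 2 (0.64), mouse 3 (0.70) or mouse 4 (0.63). Mrps21, the S21 protein, had 0.61 (SE 0.29), Mrps33 0.48 (SE 0.31) and Mrps30 0.44 (SE 0.27), and on the other side Mrps26 had -0.73 (SE 0.33) and Mrps7 -0.51 (SE 0.31).

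**Figure D5:**
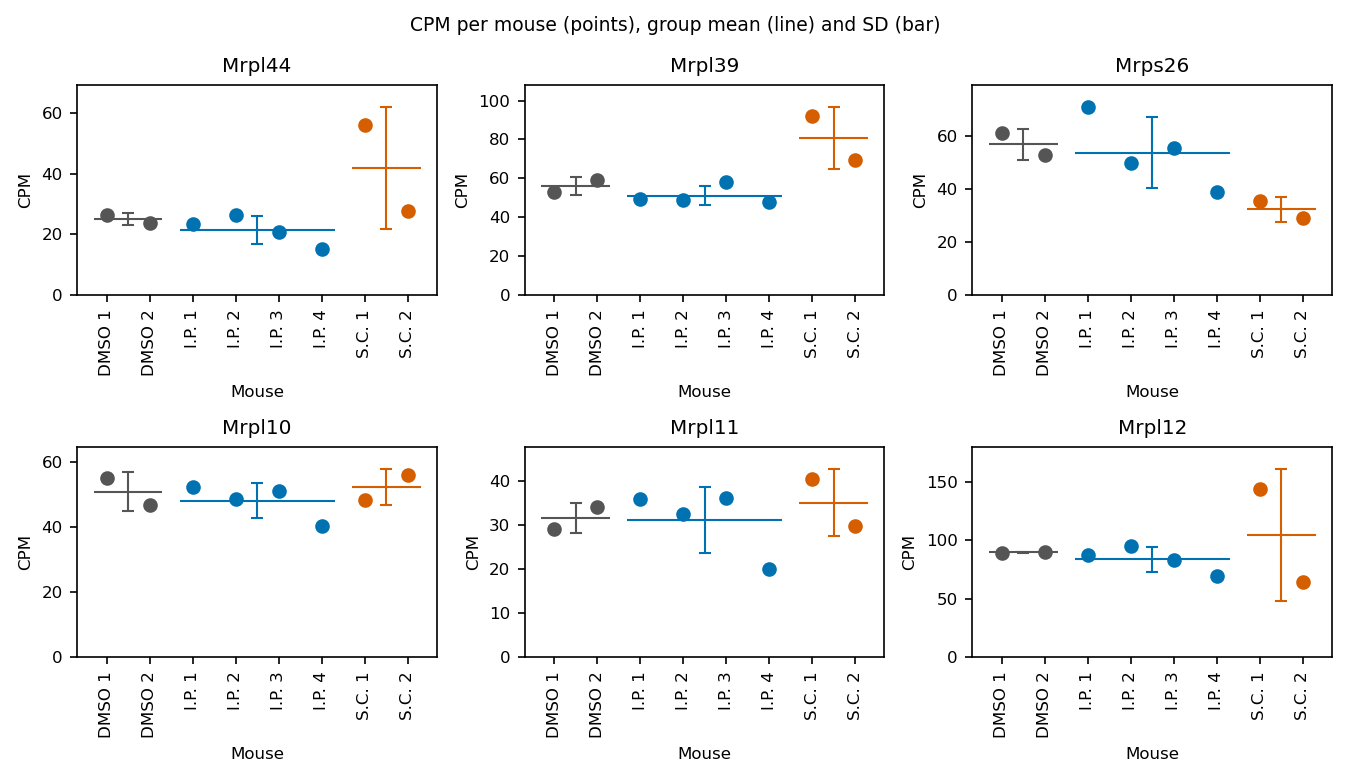
CPM of 6 members in each mouse (points) with the group mean (line) and SD (bar), for Mrpl44, Mrpl39 and Mrps26 above and the 3 genes of the GTPase-associated centre below. S.C. mouse 1 is the highest mouse for Mrpl44, at 56.1 CPM, and both S.C. mice are the lowest for Mrps26, at 35.5 and 29 CPM.

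At the site that thiostrepton binds in bacteria, the 3 proteins of the GTPase-associated centre had small differences in each comparison. Mrpl11, the mitochondrial L11 (chromosome 19 from 4962147 to 4966999, plus strand), was at 29.2 and 34.0 CPM in DMSO, 36.0, 32.4, 36.1 and 20.1 CPM in I.P. and 40.4 and 29.7 CPM in S.C. The groups overlapped, with a log2 fold change of -0.03 (95% interval -0.70 to 0.64) for I.P. and 0.12 (-0.81 to 1.06) for S.C. against DMSO. Mrpl10, which anchors the stalk, was at 55.2 and 46.7 CPM in DMSO, 52.4, 48.8, 51.0 and 40.3 CPM in I.P. and 48.4 and 56.2 CPM in S.C., with -0.09 (-0.60 to 0.43) and 0.01 (-0.81 to 0.83). It was among the members that were lower in S.C. mouse 1 than in mouse 2. Mrpl12, the stalk protein that recruits the translation factors, was at 89.2 and 89.6 CPM in DMSO, 87.4, 94.8, 82.8 and 69.5 CPM in I.P. and 144 and 64.4 CPM in S.C., with -0.10 (-0.60 to 0.39) and 0.19 (-0.91 to 1.3). Its S.C. mice lay on either side of all other mice.

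The decoding site and mRNA entry were similar. Mrps12, the S12 protein of the decoding centre, was at 34.6 and 34.3 CPM in DMSO, 45.4, 25.6, 33.6 and 22.6 CPM in I.P. and 37.1 and 38.4 CPM in S.C. Its log2 fold change was -0.12 (SE 0.31) for I.P. and 0.11 (SE 0.34) for S.C. Mrps5, the S5 protein, had -0.16 (SE 0.26) and -0.56 (SE 0.50), and Mrps24, the S3 protein, -0.06 (SE 0.26) and 0.04 (SE 0.39). Of the 3 paralogs of S18, Mrps18b was at 81.2 and 83.3 CPM in DMSO but at 107 and 30.4 CPM in S.C. mice 1 and 2. Mrps18a and Mrps18c stayed closer, at 92.8 and 71.7 CPM and at 101 and 63.8 CPM in these mice. Of the exon bases of Mrps18b, 638 of 1079 overlap another gene (174 of 940 for Mrps18c), so its counts are uncertain. A symbol does not always give the place of the protein: Mrps18a is named for the small subunit but sits in the large subunit. The Mrpl and Mrps sums follow the symbols alone, and the place of each protein was not checked. The medians for I.P. against DMSO were -0.10 in the 46 members with a listed bacterial homologue and -0.13 in the 30 without. For S.C. against DMSO they were 0.02 and -0.04, and 0 members passed P under 0.05 in either set and comparison. For S.C. against I.P. they were 0.11 and 0.10. There 0 of the 46 passed, and of the 30 without a homologue 2 were higher (3.25% of all genes) and 0 lower (5.34%).

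Other parts of the mitochondrial translation system were read from lists of 6 further ribosomal subunits, 18 translation factors and 27 assembly and rRNA factors. For I.P. against DMSO none of the 51 genes passed P under 0.05 in edgeR, with medians of -0.04, -0.16 and 0.00. For S.C. against DMSO none did either, with medians of 0.13, -0.35 and -0.18. For S.C. against I.P. 0 of the 6 subunits passed. Of the 18 factors 2 were lower, and of the 27 assembly genes 1 was higher and 1 lower. Of all genes tested 3.25% were higher and 5.34% lower. Oxa1l, which inserts new proteins into the inner membrane, was at 22.9 and 31.1 CPM in DMSO, 35.0, 31.6, 36.6 and 21.4 CPM in I.P. and 16 and 4.15 CPM in S.C. (log2 fold change against I.P. -1.62, SE 0.56, edgeR adjusted p = 0.481). Gtpbp3, which takes part in tRNA modification, had -1.68 (SE 0.59), and Polrmt, the mitochondrial RNA polymerase, -1.70 (SE 0.49). Both S.C. mice were below all others for these 3 genes. Set against the I.P. mice alone, both S.C. mice lay below for 2 of the 18 factors and 2 of the 27 assembly genes (10.5% of all genes). They lay above for 0 of the 18 and 3 of the 27 (8.05%). Gtpbp5, a GTPase of large subunit assembly, was at 40.9 and 41.6 CPM in S.C. and at 14.7 to 27.9 CPM elsewhere, with 1.10 (SE 0.30). None of the 4 passed after adjustment, and the S.C. mice are those with more RNA of neutrophils, B cells and T and NK cells, whose part was not tested.

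Of 12 mitochondrial chaperones and proteases, 0 passed in any comparison, with medians of -0.08 for I.P. and -0.21 for S.C. against DMSO. Among 13 regulators of mitochondrial genes and stress, 2 were higher for I.P. against DMSO (2.55% of all genes) and 0 lower (0.879%). Atf4, a transcription factor of the integrated stress response, was at 72.6 and 140 CPM in DMSO, 412, 175, 233 and 198 CPM in I.P. and 170 and 133 CPM in S.C. All I.P. mice were above both DMSO mice (log2 fold change 1.24, SE 0.42, edgeR adjusted p = 0.98). Such a gap was found for 3 of the 13 regulators (7.32% of all genes), and the reverse for 0 (6.83%). Ddit3, which acts downstream of Atf4, was at 42.6 and 36.4 CPM, at 120, 65.4, 78.3 and 98.6 CPM and at 54.9 and 45.7 CPM, with 1.19 for I.P. (SE 0.29, edgeR adjusted p = 0.98). Ddit3 was the 1 regulator that passed for S.C. against I.P., where it was lower (-0.85, SE 0.33), as were 5.34% of all genes. For S.C. against DMSO 0 of the 13 passed. The mRNA of NRF1, whose letters 7 member promoters hold, had -0.34 (SE 0.29) for I.P. and -0.88 (SE 0.48) for S.C., and that of GABPA, whose letters 12 hold, -0.41 (SE 0.35) and -0.01 (SE 0.40).

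Beside the 76 members, 91 cytosolic ribosomal proteins had a median log2 fold change of 0.12 for I.P. and -0.11 for S.C. against DMSO, and the 88 respiratory chain subunits -0.01 and 0.09. For I.P. 72 of the 91 cytosolic genes were higher, where 57 of the 76 mitochondrial ones were lower. The cytosolic genes varied more between the DMSO mice, at 10865 and 18088 summed CPM, where the members had 4195 and 4386 CPM. This did not hold for the S.C. mice, with 16196 and 10978 CPM for the cytosolic genes and 5247 and 3331 CPM for the members. None of the cytosolic genes passed P under 0.05 in these 2 comparisons, and the difference between the sets was not tested. All 16 cell cycle genes had lower estimates for I.P. (median -0.62) and for S.C. (median -0.27), none past P under 0.05, and their sum was lowest in I.P. mouse 1, at 583 CPM against 1320 to 2201 CPM in the other mice. The level of the members in that mouse, 4507 CPM, was the second highest.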

How the data were processed

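RNA-seq of TAMs from 8 mice was used, grouped by the sample labels. The deposited values are raw counts per gene symbol, not normalized by the authors. The labels' processing notes name TopHat2, edgeR and mm10, whereas the methods of the study name bowtie2 2.2.3 and RSEM 1.2.15. The strand setting is not given in the sources used here. All columns matched a sample.

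Genes were filtered for each pair of groups by filterByExpr (minimum count 10, minimum total 15), scaled by TMM and tested with the two-sided quasi-likelihood test of edgeR 4.0.16 in R 4.3.3. P values were adjusted by Benjamini-Hochberg over all genes tested. Intervals are 95%, and log2 CPM used a prior count of 2. The fit was tested on simulated data. P values set the difference between groups against the spread between these mice, an estimate partly shared across genes. With 14127506 to 17577466 counts, 3 counts are 0.171 to 0.212 CPM.

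Alternatives were other filters, RLE or library size scaling, DESeq2 1.42.0, the likelihood ratio test, 1 fit of all groups, a replicate block and leaving out each mouse. A filter of 8 counts in every sample, the crossed block and the split by exon length were added after seeing the data. The members and lists were chosen with earlier results of these data known. Members were named if among the 5 with the smallest P in either direction of a comparison, or in the lists for the GTPase-associated centre, decoding and S18.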

Additional observations from a re-analysis of the deposited data

Results flagged for a closer look

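Among 35 groups of 4 I.P. mice checked, 1 held a mouse far from the others. Mrpl39 was at 58.3 CPM in I.P. mouse 3, where the other I.P. mice lay between 47.7 and 49.3 CPM, a gap of 0.855 of the group's range, above Dixon's 95% critical value. Chance alone marks about 1 in 20 groups. The DMSO mice lay at 53.0 and 59.4 CPM, and without this mouse the difference between S.C. and I.P. missed the unadjusted threshold.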

How the results depend on the processing

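For I.P. against DMSO, 0 members had P under 0.05 under every alternative run, and the median stayed between -0.17 and -0.01. For S.C. against DMSO, 1 member passed with library size scaling and 1 with all groups in 1 fit (Mrps26, lower, both times); leaving out 1 mouse gave 0 to 18 members and medians of -0.334 to 0.240. For S.C. against I.P., 4 members passed with all groups in 1 fit (3 higher, 1 lower), 3 with library size scaling (1 higher, 2 lower) and 0 with the replicate block; leaving out 1 mouse gave 0 to 9 members (0 without I.P. mouse 3, 1 without I.P. mouse 2 or 4, 6 without S.C. mouse 1, 9 without S.C. mouse 2) and medians of -0.294 to 0.329. A fit left with 1 mouse in a group assumes that it varies like the others. Except where a lone S.C. mouse was set against DMSO, the shares of all genes passing under these alternatives are not given here. The counts alone therefore do not set the members apart from all genes. Library size scaling moved the median of all genes to -0.05, -0.13 and -0.08 in the 3 comparisons and that of the members to -0.17, -0.17 and 0.00. The cause of the other changes was not tested.

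The mice share replicate numbers only: the deviations of same-numbered mice correlated at -0.129 to 0.071. The block gave 0 members for I.P. and for S.C. against DMSO, with medians of -0.05 and -0.04, and a median of -0.004 for S.C. against I.P. In the block, I.P. mice 3 and 4 have no partner of the same number and add nothing to the difference between groups. The spread is then judged from few mice, so 0 members is a weak check. The crossed block, added after seeing the data, gave 0 members for S.C. against DMSO. For the named members, 31 values changed sides of the threshold and 409 did not. With 2 mice in 2 of the 3 groups, changes under 2-fold in S.C. were mostly not detectable.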
